A study of Mus musculus with 6 samples.

Results

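The NRF2 antioxidant and redox genes are a set of 36 genes, taken by gene symbol from the 35485 genes listed in each table. They were chosen for what they do: 7 regulators, 4 genes of heme and iron handling, 7 of glutathione, 6 of thioredoxin and peroxiredoxin, 6 of NADPH and quinone metabolism, and 6 that remove peroxide and superoxide. Retinal RNA of wild type C57BL/6 mice, 12 weeks old, was sequenced 2 days after surgery in 3 sham and 3 optic nerve crush (ONC) samples, each a pool of 6 retinas from 6 mice. In the ONC group the nerve was crushed 2 mm behind the eye for 10 s, and in the sham group it was exposed and left uncrushed. Each pool gives 1 value, so p-values measure the spread between pools and not that between mice. In whole retina, fewer cells of a type and less RNA per cell cannot be told apart.

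NRF2 (gene Nfe2l2) is a transcription factor that is held in the cytoplasm and passed to degradation by KEAP1. When reactive chemicals or oxidants modify KEAP1, NRF2 accumulates, pairs with small MAF proteins and binds antioxidant response elements, DNA sites that BACH1 can occupy as a repressor. Its known targets include heme oxygenase, the enzymes of glutathione synthesis, thioredoxin reductase, NADPH-producing enzymes and quinone reductase. Several of these genes, Hmox1 and Srxn1 among them, are also known targets of AP-1 and of other stress-induced factors. The comparison asks whether the members moved together early after axonal injury.

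The starts of 3 genes are shown because they hold the letters of both an antioxidant response element core and an AP-1 site, and because 1 of them, Srxn1, rose while Prdx1 and Me1 did not pass the test. Sequences are those of RefSeq on GRCm38.p6, 5′ to 3′ on the strand of the gene, from 250 bases before the start of transcription to base 10 after it, with matches in capitals. The Srxn1 window is chr2:152105274-152105533 on the plus strand, the Prdx1 window is chr4:116685349-116685608 on the plus strand and the Me1 window is chr9:86695905-86696164 on the minus strand.
Srxn1: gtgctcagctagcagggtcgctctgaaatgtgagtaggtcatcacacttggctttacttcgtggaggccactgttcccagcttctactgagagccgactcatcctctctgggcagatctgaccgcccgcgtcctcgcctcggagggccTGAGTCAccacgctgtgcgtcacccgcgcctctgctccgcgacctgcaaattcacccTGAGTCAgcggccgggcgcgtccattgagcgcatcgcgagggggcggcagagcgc
Prdx1: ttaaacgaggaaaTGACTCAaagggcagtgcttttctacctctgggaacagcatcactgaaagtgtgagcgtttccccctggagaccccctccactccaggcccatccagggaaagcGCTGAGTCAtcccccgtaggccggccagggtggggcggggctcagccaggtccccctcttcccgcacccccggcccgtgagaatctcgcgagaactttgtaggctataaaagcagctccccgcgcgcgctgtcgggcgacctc
Me1: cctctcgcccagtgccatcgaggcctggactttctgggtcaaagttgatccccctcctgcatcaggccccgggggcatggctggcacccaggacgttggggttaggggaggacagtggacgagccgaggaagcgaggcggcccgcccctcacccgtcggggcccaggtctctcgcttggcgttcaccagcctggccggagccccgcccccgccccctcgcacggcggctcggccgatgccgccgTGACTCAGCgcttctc
The Srxn1 core lies past that window, in bases 19 to 48 after the start, at chr2:152105542-152105571.
Srxn1 site: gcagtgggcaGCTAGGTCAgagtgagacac

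The motifs searched, on both strands, were TGACNNNGC for the antioxidant response element core and TGACTCA for AP-1, which can overlap each other. In Srxn1 the AP-1 letters stood at bases -102 to -96 and -45 to -39, and the core at 29 to 37. In Prdx1 the AP-1 letters at -131 to -125 lay inside the core at -133 to -125, and a further AP-1 match stood at -237 to -231. In Me1 both matches began at base -6 and overlapped. Of the members, 30 had a listed start, with 46 starts in all, while all 27025 genes had 32851 starts, fewer per gene. Shares are per gene, counting a match at any start, and were not adjusted for the number of starts. The core was found at 11 of these 30 members (36.7%), against 14% of all 27025 genes, over the same window. Besides the 3 shown, they were Nfe2l2, Maff, Mafg, Gclm, Txnrd1, G6pdx, Pgd and Sod1. The AP-1 letters were found at 5 of 30 members (16.7%), the other two being Osgin1 and Gstp1, against 5.95% of all genes. A looser core, TGANNNNGC, chosen after the sequences were seen, was found at 18 of 30 members (60%) and at 45% of all genes. In Srxn1 the AP-1 letters at -45 to -39, with the gc that follows them, also matched this looser core. Hmox1, Abcc1, Gclc, Gsr, Gsta4 and Prdx6 had no entry. These matches describe letters and not bound sites.

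Across the set, 2 of 36 genes rose in ONC, Hmox1 and Srxn1, and none fell past both thresholds. The thresholds were 0.1 for the adjusted p and 1.5 for the fold change. The adjusted p throughout comes from the quasi-likelihood test of edgeR, run on exon reads and adjusted by Benjamini-Hochberg over all 13670 genes tested. All 36 members passed the filter on low values. Of all genes tested, 0.827% were called higher and 0.834% lower by the same rule. The members were chosen with earlier results of these data known, so these shares are not a test of the set. DESeq2 and limma, with either pseudocount, also called 0 members lower, and 8 members had an unadjusted p under 0.05 in edgeR, as had 2286 of all genes. With no requirement on the fold, 2 members were higher and 1, Sod2, was lower, against 2.38% and 3.72% of all genes. The median log2 fold change of the members was 0.02, with 21 above 0 and 15 below, and that of all genes was 0.01. For 28 members the 95% interval of the change lay wholly inside 1.5-fold in either direction, which was so for 72.4% of all genes. In normalized reads the 3 ONC samples all lay above the 3 sham samples for 6 members and all below for 5, against 11.0% and 10.8% of all genes.

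**Figure D1:**
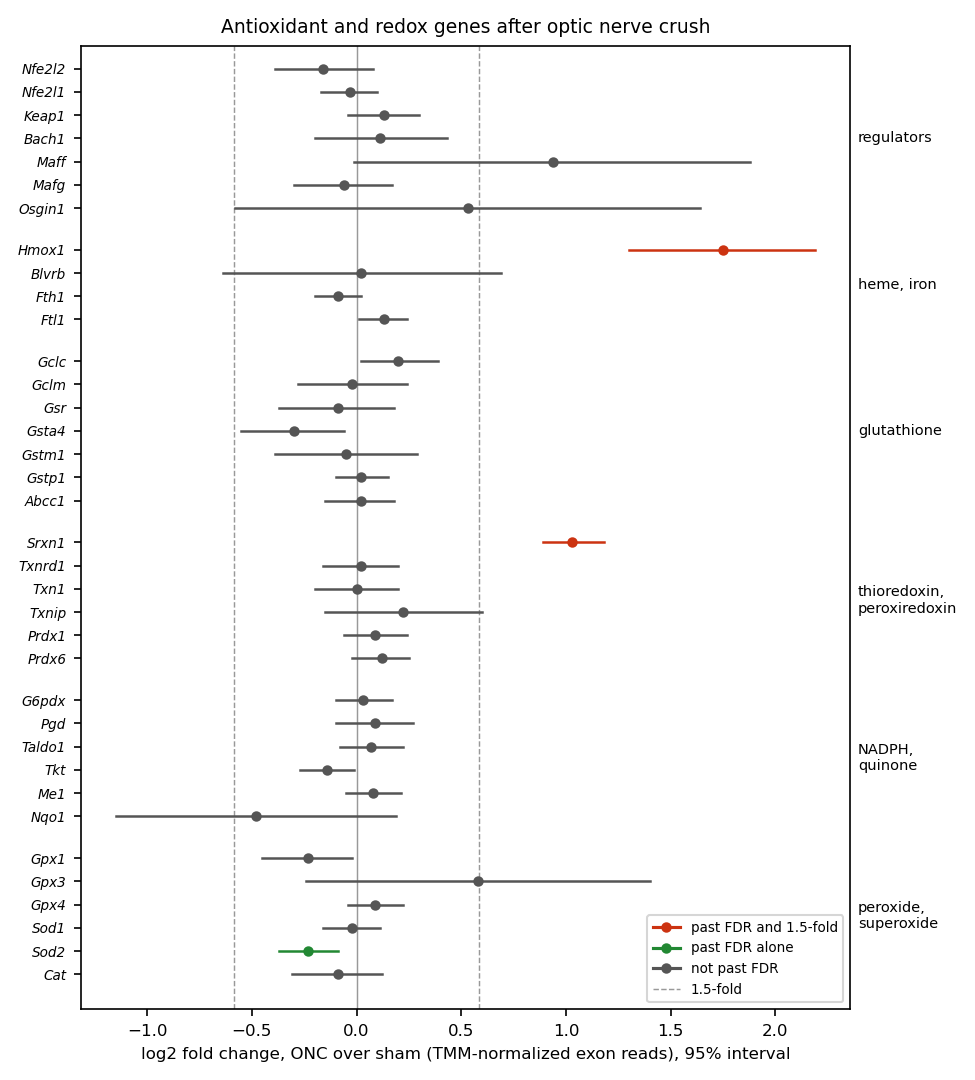
Log2 fold change, ONC over sham, of each of the 36 members (points) with its 95% interval (lines), from TMM-normalized exon reads of 3 pools a group, ordered by role, with dashed lines at a 1.5-fold change. Hmox1 at 1.75 and Srxn1 at 1.03 stand to the right of the dashed line, Sod2 at -0.23 passed the adjusted p alone, and the other intervals that reach past 1.5-fold belong to Maff, Osgin1, Blvrb, Txnip, Nqo1 and Gpx3.

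The 2 genes that rose have different roles and different starting levels. Hmox1 encodes the inducible heme oxygenase, which opens heme to biliverdin and frees its iron and carbon monoxide. The gene lies at chr8:75093618-75100593 (GRCm38, 5 exons). Its exon reads were 60, 41 and 68 in the sham samples and 220, 213 and 228 in the ONC samples. The lowest ONC sample had over 3 times the reads of the highest sham sample, and the ONC samples lay close together. In RPKM, which scales exon reads by exon length and by the reads that a library has on all genes, its level was 1.5 ± 0.364 in sham and 5.51 ± 0.0733 in ONC (SD, n = 3 pools). The log2 fold change was 1.75 (SE 0.21, 95% interval 1.30 to 2.19), a 3.35-fold rise with an adjusted p of 2.94e-05. Reads across exon junctions, which come from spliced RNA, were 18, 11 and 22 in sham and 72, 64 and 72 in ONC.

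Srxn1 encodes sulfiredoxin, which restores peroxiredoxins that peroxide has over-oxidised, at the cost of ATP. The gene lies at chr2:152105524-152111376 (2 exons). Its exon reads were 1563, 1467 and 1486 in sham and 3645, 3723 and 3339 in ONC, so every ONC sample was above every sham sample by more than the spread within either group. Its level was 22.5 ± 1.44 RPKM in sham and 50.1 ± 3.85 RPKM in ONC (SD, n = 3 pools). The log2 fold change was 1.03 (SE 0.07, 95% interval 0.89 to 1.18), a 2.04-fold rise with an adjusted p of 1.67e-08. Junction reads were 71, 75 and 64 in sham and 195, 169 and 166 in ONC, higher in every ONC sample. Both genes were called in all 17 alternative settings, with log2 fold changes of 1.39 to 1.93 for Hmox1 and 0.99 to 1.15 for Srxn1.

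**Figure D2:**
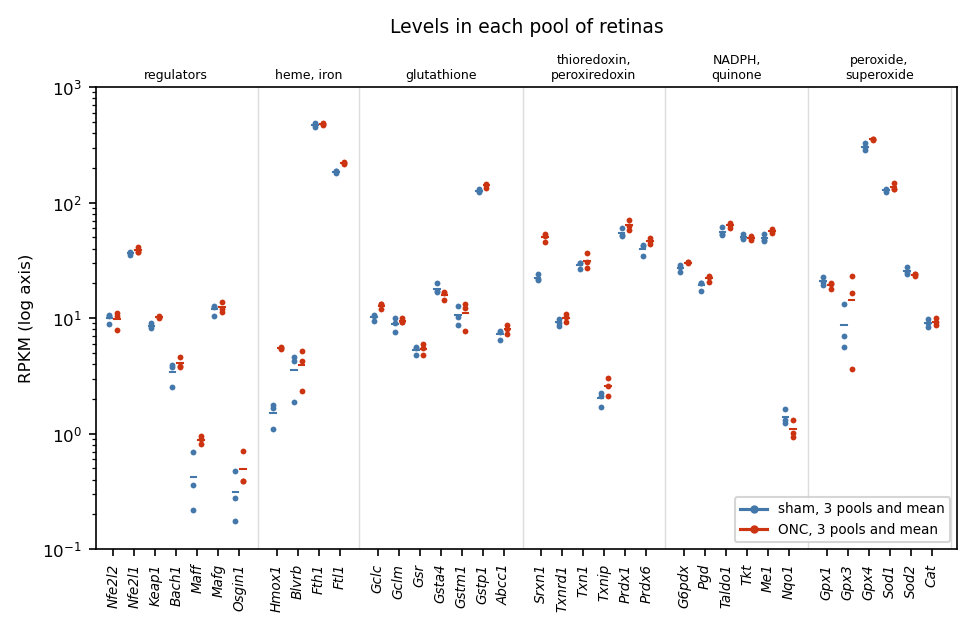
RPKM (log axis) of each member in each of the 3 sham pools (blue) and 3 ONC pools (red), with the group mean as a short line, ordered by role. The ONC points stand clear of the sham points for Hmox1 and Srxn1, the points of Gpx3 are scattered in both groups from 3.65 to 23.2 RPKM, and levels across the set run from below 1 RPKM for Maff and Osgin1 to means of 469 and 480 RPKM for Fth1.

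None of the 7 regulators passed the test, 0 had an unadjusted p under 0.05 in edgeR, and their median log2 fold change was 0.11. The transcript of NRF2 itself, Nfe2l2 (chr2:75675519-75704641), had 601, 623 and 543 exon reads in sham and 491, 687 and 663 in ONC. The groups overlapped, with the lowest value of all in an ONC sample. Its log2 fold change was -0.16 (95% interval -0.39 to 0.08, adjusted p = 0.513), and NRF2 is known to be controlled mainly at the level of its protein, which was not measured here. Keap1 (chr9:21229730-21239332), which encodes its inhibitor, had 932, 879 and 938 reads in sham and 1175, 1146 and 1175 in ONC, with a log2 fold change of 0.13 (-0.04 to 0.30, adjusted p = 0.431). Its 3 ONC samples lay above the 3 sham samples in normalized reads too. Only 63.5% of the Keap1 exon reads mapped to a single place. Nfe2l1, a relative of NRF2 that drives proteasome genes, was the most abundant regulator, with 36.9, 37.1 and 35.3 RPKM in sham and 41.2, 37.5 and 37.3 RPKM in ONC. Normalized reads gave it a log2 fold change of -0.03 (-0.17 to 0.10, adjusted p = 0.829).

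The repressor gene Bach1 (log2 fold change 0.11) and the small MAF gene Mafg (-0.06) had intervals inside 1.5-fold. Maff, another small MAF gene, had 9, 30 and 16 reads in sham and 37, 43 and 42 in ONC. Its groups did not overlap, but the interval of its log2 fold change of 0.94 ran from -0.01 to 1.88 and the adjusted p was 0.305. Osgin1, an oxidative stress-induced growth inhibitor, had 8 to 23 reads in sham and 19 to 35 in ONC, and its log2 fold change of 0.53 had an interval of -0.58 to 1.64. Both intervals hold 0 and reach past a 1.5-fold rise.

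Of the 4 genes of heme and iron handling, Hmox1 alone passed the test. Fth1 and Ftl1 encode the heavy and light chains of ferritin, the protein shell that stores iron, and were among the most abundant members. Fth1 had 9811, 9685 and 9513 reads in sham and 10349, 10504 and 10766 in ONC, or 469 ± 22.1 RPKM and 480 ± 7.59 RPKM (SD, n = 3 pools). Relative to all genes this was a log2 fold change of -0.09 (-0.20 to 0.02, adjusted p = 0.401). Ftl1 gave 0.13 (0.01 to 0.24, adjusted p = 0.237), with 57.7% of its exon reads mapped to a single place. The level of Fth1 over that of Ftl1, in RPKM, was 2.62, 2.48 and 2.51 in sham and 2.15, 2.18 and 2.20 in ONC, lower in every ONC sample. Blvrb, a biliverdin reductase, had 84, 96 and 40 reads in sham and 51, 112 and 96 in ONC, with a log2 fold change of 0.02 (-0.64 to 0.69). That interval is too wide to tell a 1.5-fold change from none.

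Hmox2, the constitutive heme oxygenase, was not a member but gives the level against which Hmox1 can be read. It had 25.6 ± 0.603 RPKM in sham and 25.7 ± 3.03 RPKM in ONC (SD, n = 3 pools), a log2 fold change of -0.12 (-0.31 to 0.06, adjusted p = 0.513). The RPKM of Hmox1 over that of Hmox2 was 0.0631, 0.0423 and 0.0704 in sham and 0.244, 0.190 and 0.216 in ONC. Hmox1 thus stayed the less abundant of the pair in every sample, by RPKM, also after crush.

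All 7 glutathione genes had intervals inside 1.5-fold, and none passed the test, with 2 at an unadjusted p under 0.05 in edgeR, Gclc and Gsta4. Gclc and Gclm encode the catalytic and modifier subunits of glutamate-cysteine ligase, the rate-limiting enzyme of glutathione synthesis. Gclc had 830, 776 and 896 reads in sham and 1141, 1144 and 1059 in ONC, with a log2 fold change of 0.20 (0.02 to 0.39, adjusted p = 0.254). Gclm gave -0.02 (-0.28 to 0.24). Gsr, the reductase that returns glutathione to its reduced form, gave -0.09 (-0.37 to 0.18).

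Gstp1, a glutathione transferase, was the most abundant of the group, at 131, 126 and 124 RPKM in sham and 135, 145 and 142 RPKM in ONC. The change was 0.02 on the log2 scale (-0.10 to 0.15, adjusted p = 0.893), or -0.08 on the 57.6% of its reads that mapped to a single place. Of the other transferases, Gsta4, which acts on products of lipid peroxidation, gave -0.30 (-0.55 to -0.06, adjusted p = 0.181), and Gstm1 gave -0.05 (-0.39 to 0.29). The ONC samples of Gsta4 all lay below the sham samples in normalized reads. Abcc1, which exports glutathione conjugates, gave 0.02 (-0.15 to 0.18) on exon reads.

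Srxn1 stood apart from the other 5 genes of thioredoxin and peroxiredoxin, none of which passed the test. Prdx1 encodes a peroxiredoxin that sulfiredoxin acts on and was the most abundant of the group, with 60.2, 52.9 and 51.2 RPKM in sham and 57.6, 70.6 and 62.6 RPKM in ONC. The groups overlapped, and the log2 fold change was 0.09 (-0.06 to 0.24, adjusted p = 0.552). The RPKM of Srxn1 over that of Prdx1 was 0.402, 0.411 and 0.421 in sham and 0.889, 0.753 and 0.732 in ONC. Prdx6, a peroxiredoxin that uses glutathione, gave 0.12 (-0.02 to 0.25, adjusted p = 0.389). Txn1, the cytosolic thioredoxin, gave 0.00 (-0.20 to 0.20), and Txnrd1, the reductase that recharges it, gave 0.02 (-0.16 to 0.20). Txnip, which binds and inhibits thioredoxin, gave 0.22 (-0.15 to 0.60). Its sign turned, to -0.12, on the 36.9% of its exon reads that mapped to a single place, and it shares its locus with Gm15441.

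The 6 genes of NADPH and quinone metabolism gave a median log2 fold change of 0.05, and none passed the test, with 1, Tkt, at an unadjusted p under 0.05 in edgeR. G6pdx and Pgd, the NADPH-producing enzymes of the pentose phosphate pathway, gave 0.03 (-0.10 to 0.17) and 0.09 (-0.10 to 0.27). Taldo1, transaldolase of the same pathway, was the most abundant of the group, with 61.6, 52.8 and 53.9 RPKM in sham and 66.5, 64.6 and 60.9 RPKM in ONC. The change of Taldo1 was 0.07 on the log2 scale (-0.08 to 0.22, adjusted p = 0.686). Tkt, transketolase, gave -0.14 (-0.27 to -0.01, adjusted p = 0.277) and passed the adjusted p (0.0352) only without ONC replicate 1, at -0.18. Me1, the cytosolic malic enzyme, gave 0.08 (-0.05 to 0.21).

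Nqo1, the quinone reductase often used as a readout of NRF2, was among the least abundant members. It had 47, 61 and 47 reads in sham and 37, 51 and 41 in ONC, which overlap as raw reads and in RPKM. In normalized reads the ONC samples all lay below the sham samples. The log2 fold change of Nqo1 was -0.48 (-1.15 to 0.19, adjusted p = 0.487). The upper end of that interval lies below a 1.5-fold rise, while its lower end reaches past a 1.5-fold fall.

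Among the 6 genes that remove peroxide and superoxide, Sod2 passed the adjusted p with a small fall. Sod2 encodes the manganese superoxide dismutase of mitochondria and lies at chr17:13007839-13018119. It had 2114, 2528 and 2360 reads in sham and 2317, 2298 and 2317 in ONC, which overlap as raw reads, but after normalization the ONC samples all lay below the sham samples. The log2 fold change was -0.23 (SE 0.07, -0.37 to -0.09), with an adjusted p of 0.0658, and 0.108 with the replicate number as a block. The call was kept in 8 of 17 alternative settings, over which the log2 fold change ran from -0.30 to -0.10 and the adjusted p from 0.0113 to 0.440. It was lost without sham replicate 2 (adjusted p = 0.287), sham replicate 3 (0.279), ONC replicate 2 (0.170) or ONC replicate 3 (0.205).

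Gpx4, the peroxidase that reduces lipid hydroperoxides in membranes, was the most abundant of the group, with 329, 286 and 301 RPKM in sham and 352, 357 and 353 RPKM in ONC. On the log2 scale the value was 0.09 (-0.04 to 0.22, adjusted p = 0.482), with 55.8% of its exon reads mapped to a single place. Gpx1, the cytosolic peroxidase, gave -0.23 (-0.45 to -0.02, adjusted p = 0.251), with its ONC samples all below the sham samples in normalized reads. Sod1, the copper-zinc superoxide dismutase, gave -0.02 (-0.16 to 0.11), and Cat, catalase, gave -0.09 (-0.31 to 0.12).

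Gpx3, the secreted plasma peroxidase, was uneven between the pools of both groups. It had 198, 256 and 495 reads in sham and 140, 618 and 912 in ONC, so that 1 ONC sample was the lowest and another the highest of all 6. The SD was 47.0% of the mean in sham and 68.8% in ONC, by RPKM, the highest share of any member in ONC but below those of Maff (57.7%) and Osgin1 (49.5%) in sham. The log2 fold change of 0.58 had an interval of -0.24 to 1.40 and an adjusted p of 0.490. Without ONC replicate 1 it became 1.03, with an adjusted p of 0.00141, and it was then called higher. Without ONC replicate 3 it was 0.03 (adjusted p = 0.982), and over all 17 alternative settings it ran from 0.03 to 1.09, past the adjusted p in 2. With no filter on low values its adjusted p was 0.000592 at the same log2 fold change. Summed RPKM of 4 pigment epithelium markers was 11.3, 14.9 and 8.63 in sham and 10.9, 12.2 and 8.08 in ONC. The source of the uneven Gpx3 values was not tested.

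A wider list of 69 genes of the same pathways gave 63 that could be tested. Nfe2, Gstm2, Mgst2 and Abcc3 lay below the filter, and Msrb1 had no row. Nnt was listed with an exon length of 0, so it could have no exon reads and its level could not be measured. Of the 63, 3 rose and none fell past both thresholds, with a median log2 fold change of 0.08, 43 above 0 and 20 below. Of all genes tested, 0.827% rose and 0.834% fell by this rule, the median was 0.01, and 7147 of 13670 lay above 0. The list was chosen with earlier results of these data known, so these counts describe it and cannot test for an excess. Chac1 encodes an enzyme that breaks down glutathione and is a known target of the ATF4 and CHOP arm of the stress response. The gene lies at chr2:119351242-119354326. It had 50, 45 and 47 reads in sham and 345, 337 and 319 in ONC. This was a 6.06-fold rise, with a log2 fold change of 2.60 (SE 0.17, adjusted p = 1.67e-08), beside 1.75 for Hmox1.

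Slc7a11, the cystine carrier that supplies glutathione synthesis, had 112, 105 and 60 reads in sham and 168, 154 and 222 in ONC. The log2 fold change was 0.76 (0.29 to 1.23, adjusted p = 0.0654), and the call was lost without sham replicate 2 (adjusted p = 0.149), sham replicate 3 (0.277) or ONC replicate 3 (0.311), and in limma with either pseudocount. Sesn2, a stress-induced sestrin linked to peroxiredoxin repair and to the control of growth signalling, had 255, 297 and 246 reads in sham and 492, 443 and 483 in ONC. The log2 fold change was 0.62 (0.37 to 0.87, adjusted p = 0.00417), just past 1.5-fold, and it stayed under that fold without ONC replicate 1 (0.57) and on exon and intron reads together (0.58).

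With no requirement on the fold, 5 of the 63 were higher and 2 lower, beside 2.38% and 3.72% of all genes, so that the lower genes were no more frequent than among all genes. The other four are named here after their values were seen. Sqstm1, the autophagy receptor p62, which binds KEAP1, had 80.5 ± 6.75 RPKM in sham and 130 ± 4.73 RPKM in ONC (SD, n = 3 pools). Its log2 fold change was 0.57 (0.45 to 0.69, adjusted p = 2.74e-06), a 1.48-fold rise just under the fold threshold, and 0.69 with the scaling of RPKM, which is past it. Slc3a2, the heavy chain that partners Slc7a11 and other amino acid carriers, gave 0.29 (adjusted p = 0.00845). The lower genes were Tfrc, the transferrin receptor, with -0.22 (adjusted p = 0.0480), and Sesn3, a sestrin, with -0.37 (adjusted p = 0.0716). Tfrc lost its call in 8 of the alternative settings, among them those without sham replicate 1 (adjusted p = 0.101), 2 (0.262) or 3 (0.113) or ONC replicate 3 (0.120). Sesn3 lost it in 7, among them those without sham replicate 2 (0.286) or 3 (0.230) or ONC replicate 2 (0.30) or 3 (0.217).

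**Figure D3:**
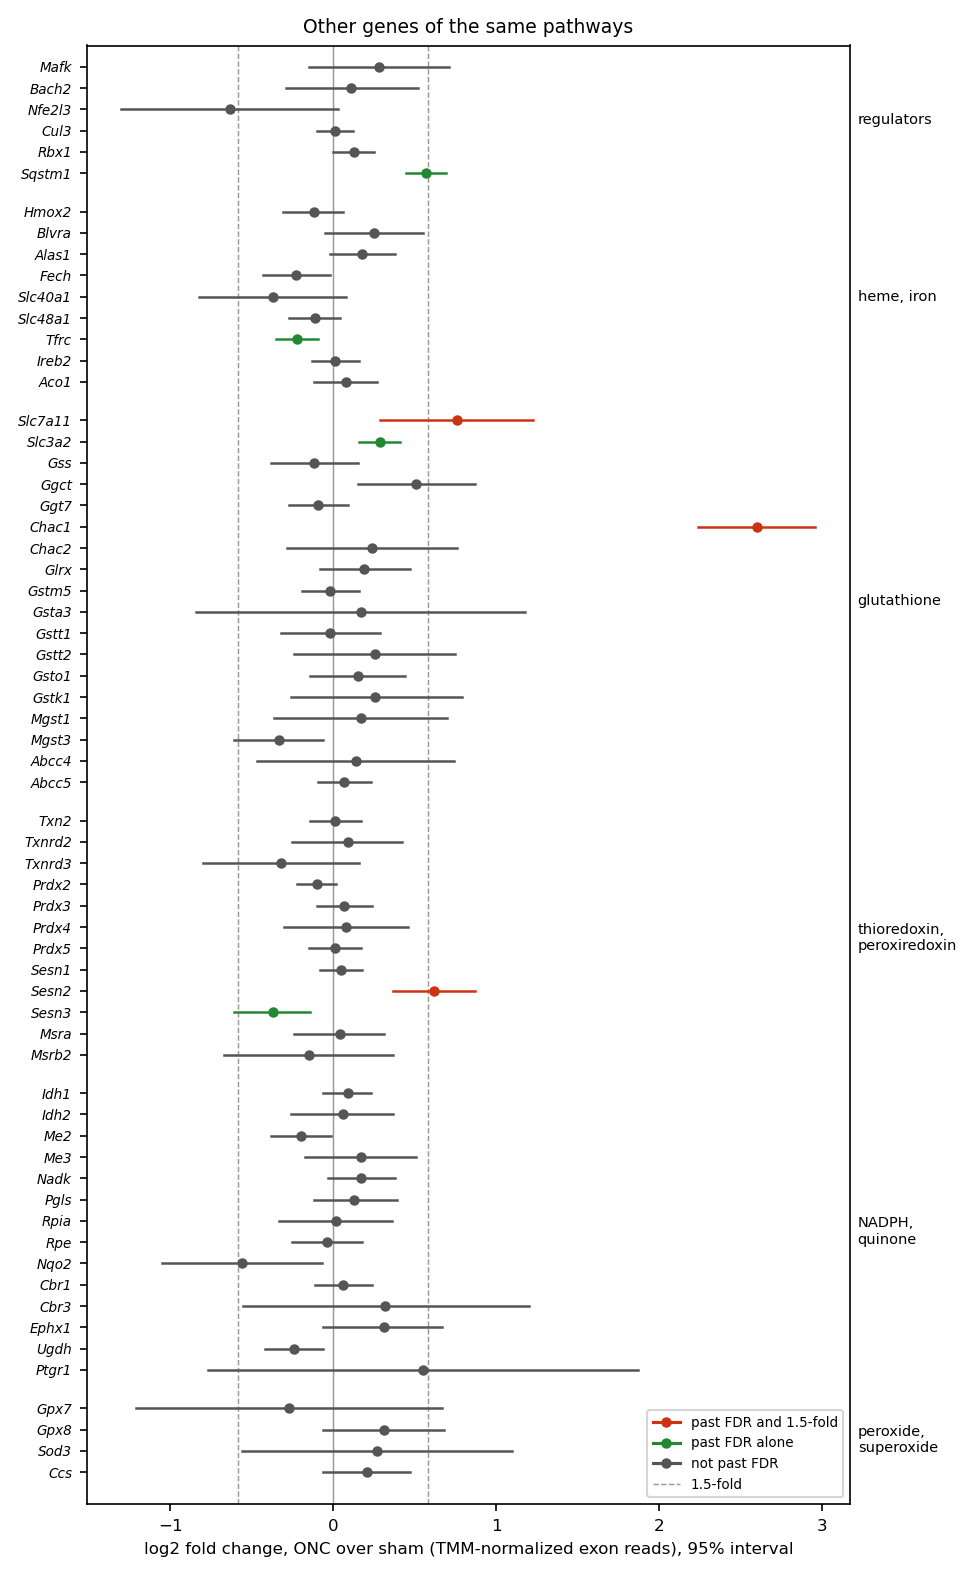
Log2 fold change, ONC over sham, with its 95% interval for the 63 tested genes of the wider list, ordered by role, with dashed lines at a 1.5-fold change. Chac1 at 2.60, Slc7a11 at 0.76 and Sesn2 at 0.62 are past both thresholds, and Sqstm1 at 0.57 lies just inside the dashed line.

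Intron reads, which can come from RNA not yet spliced, gave a second readout of the same genes in the same libraries. They could be tested for 28 members, and the other 8 had under 10 intron reads on average in both groups, Hmox1 among them with 2, 0 and 3 in sham and 3, 12 and 3 in ONC. For Srxn1 they were 26, 6 and 21 in sham and 34, 22 and 21 in ONC. Its intron log2 fold change of 0.60 had an interval of -0.66 to 1.87 (adjusted p = 0.635), so a rise as large as that of its exon reads could not be told from none. The median intron log2 fold change was 0.08 for the members and 0.03 for all genes.

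One member passed the adjusted p on intron reads, Abcc1, against 2.75% of all 13821 genes tested there. Abcc1 had 322, 359 and 478 intron reads in sham and 184, 234 and 293 in ONC, every ONC sample below every sham sample. The intron log2 fold change was -0.68 (-1.05 to -0.31, adjusted p = 0.0826) beside 0.02 on exon reads, and the call was lost without sham replicate 2, sham replicate 3, ONC replicate 2 or ONC replicate 3. At an unadjusted p under 0.05 in edgeR there were 4 more, Txnrd1 (-0.67), Me1 (-0.54), Mafg (0.38) and Gpx4 (0.62), with adjusted p-values of 0.198 to 0.210. The share of all genes under that unadjusted p was not counted, so these 4 cannot be read as an excess. The share of reads on exons was 70.9% to 76.6% in sham and 78.5% to 80.4% in ONC, and its part in these intron values was not tested. Without strand, reads of an overlapping gene count here too, and Txnrd1 overlaps Eid3 and Me1 overlaps A330041J22Rik. Gclm, which overlaps Gm6061, had 2779 to 3410 intron reads a sample beside 271 to 379 exon reads.

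**Figure D4:**
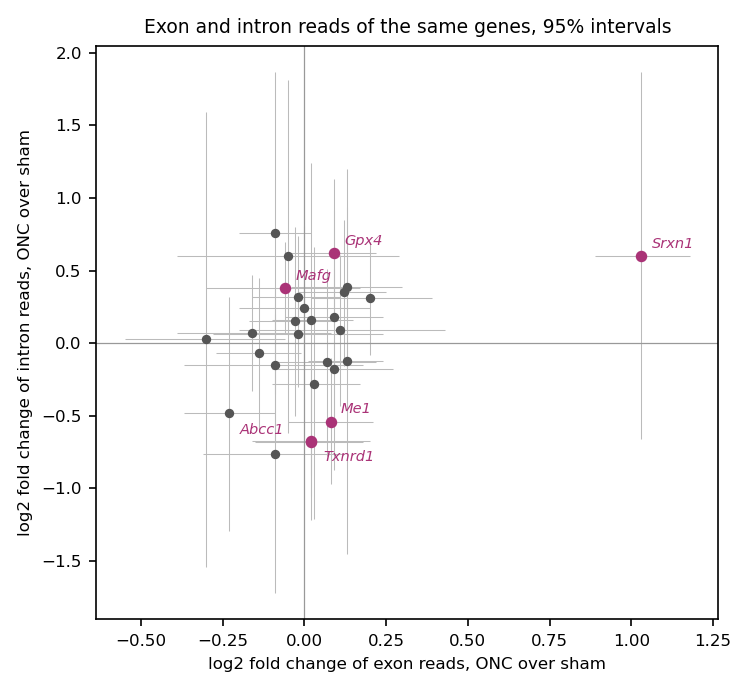
Log2 fold change of intron reads (vertical axis) against that of exon reads (horizontal axis), ONC over sham, for the 28 members with enough intron reads, with 95% intervals as grey lines. Srxn1 stands alone to the right, with an intron interval that crosses 0, while Abcc1 at -0.68 and Txnrd1 at -0.67 lie below 0 on intron reads and at 0.02 on exon reads.

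Some cell type markers differed between ONC and sham, and their part in the values above was not tested. Of 12 microglia markers, all tested, 5 were higher past the adjusted p and 11 lay above 0, and their summed RPKM was 29.6 to 35.8 in sham and 47.8 to 56.0 in ONC. Of 6 monocyte and macrophage markers only Lyz2 passed the filter (log2 fold change 0.51, adjusted p = 0.391) and Ccr2 was at 0 in all samples, with a sum of 1.77 to 2.34 RPKM in sham and 2.98 to 4.06 RPKM in ONC. Red blood cell markers went the other way, with Hba-a1 and Hba-a2 lower past the adjusted p among 4 tested of 6 listed. Hbb-b2 had no row and Slc4a1 lay below the filter. Only 28.7% of the Hba-a1 and 29.5% of the Hba-a2 exon reads mapped to a single place. The sum was 258, 130 and 116 RPKM in sham and 82.8, 111 and 76.9 RPKM in ONC, by far the highest in sham replicate 1.

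Of the retinal ganglion cell markers listed, 5 of 6 were lower past the adjusted p, and Slc17a6 was higher. Their sum was 166 to 177 RPKM in sham and 104 to 111 RPKM in ONC. Sncg made up most of it, with a mean of 115 RPKM in sham and 64.9 RPKM in ONC. The lower ones are all markers that the paper reports as downregulated. Thy1 and Pou4f3, which the paper reports as not significantly changed, were not in the list. The share that was lower thus describes this list and not ganglion cell markers in general. None of 8 Müller glia markers passed the test, with a sum of 884 to 1010 RPKM in sham and 973 to 1010 RPKM in ONC. Their median log2 fold change was -0.01, with 3 of 8 above 0. Among these, Gfap gave 0.36 (0.10 to 0.62, adjusted p = 0.126) and Vim gave 0.18 (0.06 to 0.31, adjusted p = 0.112). With the replicate number as a block the adjusted p was 0.0666 for Gfap and 0.183 for Vim. Rod markers, which mark the tissue as retina, summed to 19300 to 20100 RPKM in sham and 21100 to 22500 RPKM in ONC, and 2 of 6, Pde6b and Sag, were higher past the adjusted p. None of 4 pigment epithelium and 4 endothelium markers passed.

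**Figure D5:**
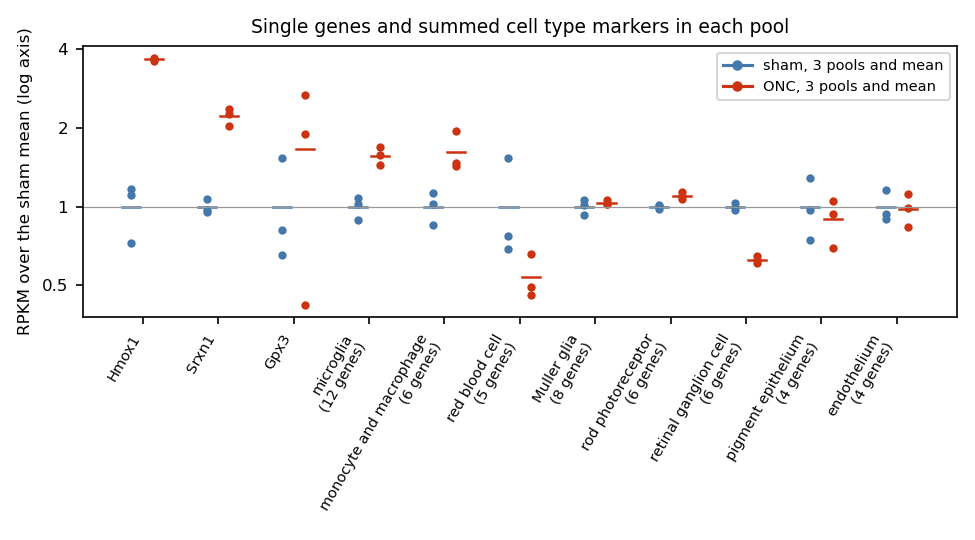
RPKM of Hmox1, Srxn1 and Gpx3 and summed RPKM of 8 lists of cell type markers in each pool, divided by the mean of the 3 sham pools (log axis), with group means as short lines. All ONC pools are higher than the sham pools for Hmox1, Srxn1 and the sums of microglia, of monocytes and macrophages, and of rods. They are lower for the red blood cell and ganglion cell sums, and mixed for Gpx3 and the other sums.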

How the data were processed

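Per the labels and the study's methods, TruSeq RNA libraries were sequenced in pairs, and the authors mapped them with CLC Genomics Workbench 6.0.1, with at most 2 mismatches, with each intact pair taken as 1 read and broken pairs not counted. For each sample the authors deposited counts of total and unique exon reads, gene reads and junction reads. The RPKM values deposited by the authors divide exon reads by exon length and by all reads on genes, introns included. The labels name mm9, but gene positions in the tables matched GRCm38 (RefSeq) for 29864 of 29905 genes, so GRCm38 is used here.

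Exon reads were tested with edgeR 4.0.16 (quasi-likelihood, TMM, R 4.3.3) over the 13670 genes with a mean RPKM over 0.3 in a group, with Benjamini-Hochberg adjustment and thresholds of 0.1 (adjusted p) and 1.5 (fold). Standard errors are the log2 fold change over the root of F. Intron reads are gene reads minus exon reads, for genes with a mean of 10 or more in a group. Total exon reads were 17343945 to 18349331 in sham and 20019818 to 20358008 in ONC. DESeq2 1.42.0, limma 3.58.1 on log2(RPKM + 0.1) and log2(RPKM + 1), other scalings, filters and read types, a replicate block and leaving out each sample were alternatives. Scripts were tested on simulated data. The members, lists and tests were chosen with earlier results of these data known. Every member is named, and full values go to Hmox1, Srxn1, Nfe2l2, Keap1, members past the adjusted p and the most abundant of each role. From the wider list, Hmox2 and genes past both thresholds are named by rule. Further genes were given full reads after their values were seen. Replicates differed by more than counting noise (chi-square per degree of freedom 4.54 to 13.7).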

Additional observations from a re-analysis of the deposited data

How the results depend on the processing

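Hmox1 and Srxn1 were called higher, and no member lower, in all 17 alternative settings, and Gpx3 joined them without ONC replicate 1, which made 3. Of 610 recomputed values of single members, 586 kept their direction, where called, and their side of the threshold, 9 lost the call, 15 gained it and 0 reversed. Uncalled values changed sign in 63 cases, over 16 members. The number of members past the adjusted p at any fold, 3 in the main test, was 8 with the scaling of RPKM and 5 in limma with either pseudocount. Under the scaling of RPKM, which also moved the median log2 fold change of all genes from 0.01 to 0.13, the 8 were Hmox1, Srxn1, Keap1 (0.25), Ftl1 (0.25), Gclc (0.33), Prdx6 (0.23), Me1 (0.20) and Gpx4 (0.21), all higher, and Sod2 was lost (-0.11). Relative to that median the added values lie 0.07 to 0.20 above it. Leaving out 1 sample gave 2 to 5 members, 5 without ONC replicate 1, and 4 to 10 genes of the wider list (7 in the main test, and 4 without sham replicate 2, sham replicate 3 or ONC replicate 3). On intron reads it gave 0 to 1 members, and scaling by the sum of intron reads gave 0. The cause of these changes was not tested. Same-numbered samples did not deviate together (correlations -0.0591, -0.0252 and 0.00695), so the numbers do not pair them. With the replicate block 2 members passed the adjusted p at any fold, Hmox1 (log2 fold change 1.77) and Srxn1 (1.03), and it changed no other call of a member than that of Sod2. The intervals of Maff, Osgin1, Blvrb, Txnip, Nqo1 and Gpx3 hold both 0 and a change of over 1.5-fold, a fall for Nqo1, either direction for Blvrb and a rise for the others.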
